A study of Mus musculus with 16 samples.

Results

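The acute phase proteins are secreted proteins whose concentration in blood changes during inflammation. Here 8 of their genes were followed in mouse mammary adipose tissue by RNA-Seq: Saa1, Saa2, Saa3, Hp, Lcn2, Orm1, Orm2 and Cp. They were chosen by name, as genes of the major positive acute phase proteins that adipose tissue can make. The rule uses no measured value, but it was written with earlier results of these data known. Of these 8 genes, 7 were among the 23179 listed genes. Saa2 had no row and was not analysed here. The remaining 7 include Saa1, which was too low to test, so 6 of the 8 were among the 21218 genes tested.

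Mammary fat from the side opposite the tumor was compared in 4 groups of 4 female wild-type C57BL/6NCrl mice. CON-LFD mice received a low-fat diet throughout and were never obese. DIO mice first received a diet with 60% of calories from fat until obese (diet-induced obesity). DIO-HFD mice then stayed on it, DIO-LFD mice were switched to the low-fat diet, and DIO-VSG mice had a vertical sleeve gastrectomy, in which most of the stomach is removed, together with the low-fat diet. Mice of the other 3 groups had a sham operation. All 16 mice, controls included, carried a tumor grown from E0771 cells, a mouse mammary cancer line injected into the fourth mammary fat pad 22 weeks after the first randomization. No group was tumor free, so the level of these transcripts without a tumor cannot be given. The sample labels also carry the name of the tumor line as a cell line, but the tissue sequenced was the whole contralateral fat pad, which holds adipocytes, mammary epithelium, vessels, immune cells and often a lymph node.

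In an acute phase response, interleukin-6, interleukin-1 and tumor necrosis factor act through STAT3, C/EBP and NF-kB transcription factors to raise transcription of these genes, above all in the liver. Several are also made outside the liver: adipocytes secrete haptoglobin and orosomucoid, and Saa3 is the serum amyloid A gene of mouse adipocytes and macrophages. Haptoglobin binds free hemoglobin, ceruloplasmin is a copper-containing ferroxidase, lipocalin-2 captures iron-bearing siderophores of bacteria, orosomucoids carry small lipophilic ligands, and serum amyloid A proteins associate with high-density lipoprotein.

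Each library held between 46907377 and 57610899 reads. Values are normalized counts, that is, reads divided by a size factor of the library (0.904 to 1.22). Libraries differed in tissue content. The 10 B cell markers summed to 341 to 3602 normalized counts in 4 libraries (CON-LFD replicates 2 and 4, DIO-HFD replicates 2 and 3) and to 18854 to 105669 in the other 12. All 4 DIO-VSG libraries lay between 71892 and 83576. Of the 12 listed hepatocyte markers, 8 had their highest value in DIO-LFD replicate 1. The 4 given here were chosen after their values were seen: Apoa1 was at 321 normalized counts against 7.18 at most in the other 15 libraries, Ttr at 167 against 1.80 at most, Ahsg at 267 against 16.4 at most and Fga at 138 against 1.11 at most. The sum of all 12 did not set that library apart (37036 normalized counts, within a DIO-LFD range of 18551 to 76261). That sum is carried by Cyp2e1 and Alb, which were abundant in most libraries, and had a median of 48218 in CON-LFD, 6704 in DIO-HFD, 32197 in DIO-LFD and 25753 in DIO-VSG. The 6 skeletal muscle markers summed to 128210 in DIO-LFD replicate 4, 30901 in CON-LFD replicate 4 and 21328 in DIO-VSG replicate 2, against 5996 at most in the other 13 libraries. The 12 adipocyte markers were all tested and abundant, summing to 534858 to 1873100 normalized counts, so the tissue held the adipocytes that its label names. In whole tissue, fewer cells of a type and less RNA per cell cannot be told apart.

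Compared per kilobase of their longest coding transcript, the members spanned a wide range of levels. The median over the 16 libraries was 7862 normalized counts per kilobase for Hp, 4457 for Orm1, 2758 for Lcn2 and 2649 for Cp. These were the 4 abundant members. Orm2 had a median of 44.5 normalized counts per kilobase, Saa3 one of 8.53 and Saa1 one of 1.80. Cp varied least, 3.93-fold between its lowest and its highest library, and Saa3 varied most, from 1.91 normalized counts (2 reads) to 936.

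**Figure D1:**
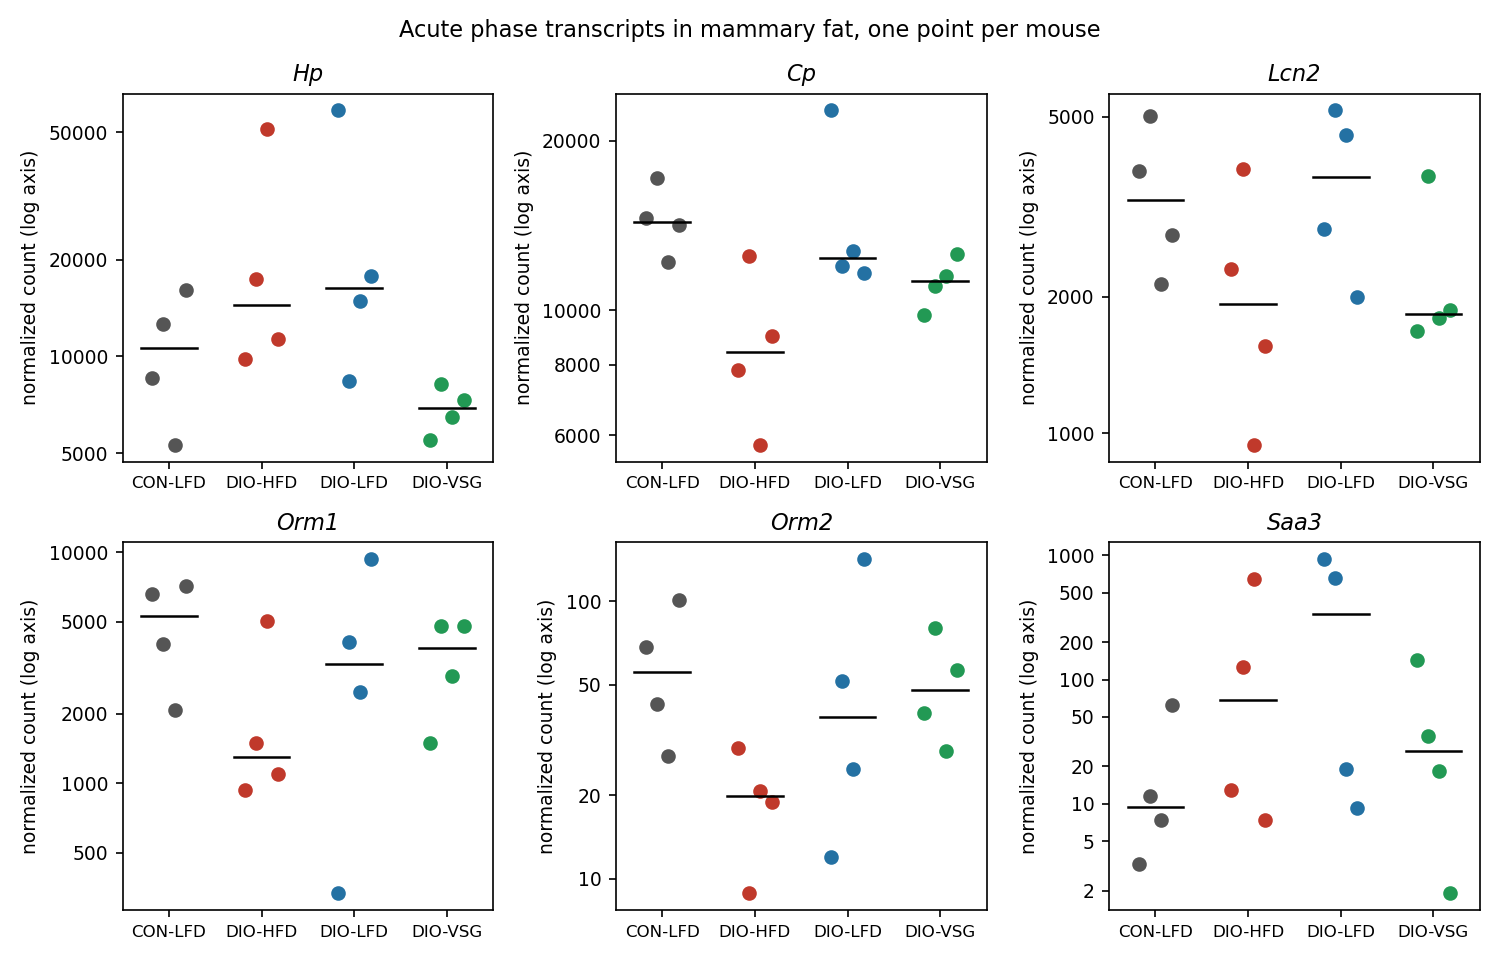
Normalized count (log axis) of the 6 tested acute phase genes in each mouse, by group; each point is 1 library, n = 4 per group, and the horizontal line is the group median. Hp in the 4 DIO-VSG libraries (5479 to 8196) lay below all DIO-HFD and DIO-LFD libraries, and Saa3 ran from 1.91 to 936 with 3 libraries at 642 or more.

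Hp encodes haptoglobin, which binds hemoglobin released from red cells (chr8:109575128-109579172, minus strand, GRCm38). Hp was at 5479, 8196, 6460 and 7332 normalized counts in the 4 DIO-VSG libraries. It was at 9800, 17486, 50954 and 11349 in DIO-HFD and at 58484, 8382, 14844 and 17821 in DIO-LFD. Thus every DIO-VSG library was below every DIO-HFD and every DIO-LFD library, although the gap to DIO-LFD replicate 2 was only 8196 against 8382 and closed after scaling to library totals or quantile normalization. CON-LFD libraries, at 8573, 12620, 5303 and 16115, overlapped all other groups.

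Mean Hp was 6867 ± 1165 normalized counts in DIO-VSG, 22397 ± 19325 in DIO-HFD, 24883 ± 22744 in DIO-LFD and 10653 ± 4713 in CON-LFD (SD, n = 4 each). Its standard deviation was 16.97% of the mean in DIO-VSG and 91.4% in DIO-LFD. Hp in DIO-VSG differed from DIO-HFD by -1.39 on the log2 scale (95% interval -2.62 to -0.15, unadjusted P = 0.0300, adjusted P = 0.341, limma). Relative to DIO-LFD the difference was -1.48 (95% interval -2.71 to -0.25, unadjusted P = 0.0216, adjusted P = 0.509, limma). Neither passed the threshold over all genes tested. Between DIO-HFD and CON-LFD the Hp difference was 0.86 (95% interval -0.38 to 2.09, unadjusted P = 0.158, limma), and 1.17 with the B cell markers as a covariate (unadjusted P = 0.0145, adjusted P = 0.214). With the markers of mammary epithelium as a covariate it was 0.15 (unadjusted P = 0.785, limma). For DIO-VSG against DIO-HFD, the Hp difference was -0.69 with the B cell covariate (unadjusted P = 0.144) and -1.05 with the epithelial one (unadjusted P = 0.0507). Against DIO-LFD these values were -1.16 (unadjusted P = 0.0149) and -1.94 (unadjusted P = 0.00186). For DIO-VSG against DIO-HFD and against DIO-LFD the exact two-sided permutation test gave P = 0.0286, the smallest value that 4 against 4 libraries allow.

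The size of the Hp difference rested in part on the libraries with the highest values. Without DIO-HFD replicate 3 the difference between DIO-VSG and DIO-HFD was -0.88 (unadjusted P = 0.119), and without DIO-LFD replicate 1, the library with liver transcripts, that between DIO-VSG and DIO-LFD was -0.94 (unadjusted P = 0.0869). DIO-HFD replicate 3 had Apoa1 at 2.18 normalized counts and Ttr at 0. Within the 12 libraries with B cell marker sums over 10000, a choice made after these sums were seen, the difference between DIO-VSG and DIO-HFD was -0.63 (unadjusted P = 0.297), with 2 DIO-HFD libraries left, and that between DIO-VSG and DIO-LFD was -1.48 (unadjusted P = 0.0100). The adipocyte markers summed to 871762 to 1187040 normalized counts in DIO-VSG, 534858 to 1791780 in DIO-HFD and 1122110 to 1873100 in DIO-LFD, and the highest sums were those of DIO-LFD replicate 1 and DIO-HFD replicate 3. The 6 endothelial markers summed to 36233 to 37433 in DIO-VSG and to 41886 to 67433 in DIO-HFD, without overlap, and to 36773 to 74905 in DIO-LFD. Within DIO-HFD and within DIO-LFD, endothelial sums ranked the libraries in the order of Hp, with DIO-HFD replicate 3 and DIO-LFD replicate 1 at the top. The part of either cell type in the Hp differences was not tested. In level, Hp was ordered DIO-LFD, DIO-HFD, CON-LFD and DIO-VSG, and each group overlapped its neighbor in that order.

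Cp encodes ceruloplasmin, which oxidizes ferrous iron as it leaves cells (chr3:19957054-20009145, plus strand). Cp was at 7828, 12508, 5767 and 9020 normalized counts in DIO-HFD and at 14612, 17168, 12174 and 14152 in CON-LFD. The 3 lowest of these 8 libraries were DIO-HFD libraries, and the groups overlapped only through DIO-HFD replicate 2, which exceeded CON-LFD replicate 3. In DIO-LFD it was at 22675, 12004, 12760 and 11631, of which replicate 1 stood far above the rest, and in DIO-VSG at 9829, 11043, 11488 and 12570.

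Mean Cp was 8781 ± 2825 normalized counts in DIO-HFD and 14526 ± 2054 in CON-LFD (SD, n = 4 each). The log2 difference was -0.77 (95% interval -1.27 to -0.27, unadjusted P = 0.00504, adjusted P = 0.237, limma; exact permutation P = 0.0571). In DIO-LFD the mean was 14767 ± 5293, which differed from DIO-HFD by 0.75 on the log2 scale (95% interval 0.25 to 1.25, unadjusted P = 0.00621, adjusted P = 0.456, limma). DIO-LFD and CON-LFD differed by -0.02 (95% interval -0.52 to 0.47). Without DIO-LFD replicate 1, the difference between DIO-LFD and DIO-HFD was 0.52 (unadjusted P = 0.0225). In DIO-VSG the mean was 11232 ± 1134, between DIO-HFD and CON-LFD, with a log2 difference of 0.41 from DIO-HFD (95% interval -0.09 to 0.90). That difference was 0.22 without DIO-HFD replicate 3 and 0.59 without DIO-HFD replicate 2 (unadjusted P = 0.0187). The order was CON-LFD, DIO-LFD, DIO-VSG and DIO-HFD by mean log2 value, and neighbors overlapped.

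Lcn2 encodes lipocalin-2, an iron-sequestering protein made by adipocytes, neutrophils and epithelia (chr2:32384633-32388252, minus strand). It was at 3784, 5008, 2132 and 2744 normalized counts in CON-LFD and at 2302, 3820, 943 and 1558 in DIO-HFD. In DIO-LFD it was at 2817, 5162, 4541 and 1996, and in DIO-VSG at 1682, 3703, 1801 and 1870. All groups overlapped, and DIO-VSG replicate 2 lay apart from the other DIO-VSG libraries. The mean was 3417 ± 1261 in CON-LFD, 2156 ± 1241 in DIO-HFD, 3629 ± 1473 in DIO-LFD and 2264 ± 962 in DIO-VSG (SD, n = 4 each). Relative to CON-LFD, DIO-HFD differed by -0.77 on the log2 scale (95% interval -1.69 to 0.14, unadjusted P = 0.0909, adjusted P = 0.466, limma). Relative to DIO-HFD, DIO-LFD differed by 0.84 (95% interval -0.08 to 1.75) and DIO-VSG by 0.17 (95% interval -0.74 to 1.09). Single DIO-HFD libraries moved these values: without replicate 3 the difference from CON-LFD was -0.44 and that of DIO-LFD was 0.50, and without replicate 2 they were -1.11 (unadjusted P = 0.0179) and 1.17 (unadjusted P = 0.0133). Without DIO-LFD replicate 4 the difference between DIO-LFD and DIO-HFD was 1.09 (unadjusted P = 0.0278).

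Markers of mammary epithelium are given beside Cp and Lcn2. Of the 17 tested epithelial markers, 16 had lower means in DIO-HFD than in CON-LFD, 6 of them at an unadjusted P below 0.05 (12.9% of all genes) and 0 past the adjusted threshold, and the median log2 difference of the list was -0.70. The 17 listed markers summed to 81497 to 159717 normalized counts in CON-LFD, 49616 to 109664 in DIO-HFD, 90655 to 215232 in DIO-LFD and 87112 to 124215 in DIO-VSG. Krt8, a keratin of luminal epithelium, had a mean of 13438 ± 3486 in CON-LFD and 8156 ± 1808 in DIO-HFD (SD, n = 4 each). With the epithelial markers as a covariate, the Cp difference between DIO-HFD and CON-LFD was -0.65 (unadjusted P = 0.0282), and that of Lcn2 was -0.20. In DIO-VSG the median epithelial sum was 100828 against 64287 in DIO-HFD, and mean Lcn2 was 2264 against 2156, less than 1 SD apart. In DIO-LFD the median epithelial sum was 128910. There 9 of 17 markers were higher than in DIO-HFD at an unadjusted P below 0.05 (8.53% of all genes). With the epithelial covariate, DIO-LFD differed from DIO-HFD by 0.19 for Lcn2 (unadjusted P = 0.632) and by 0.61 for Cp (unadjusted P = 0.0420). What share of these differences came from epithelium was not tested. Of the 12 adipocyte markers, 11 also had lower means in DIO-HFD than in CON-LFD, 1 of them at an unadjusted P below 0.05, with a median log2 difference of -0.53, and their part was not tested either. Neutrophil markers, which could also bring Lcn2, summed to 2782 to 13165 normalized counts in CON-LFD and 3796 to 11799 in DIO-HFD, overlapping ranges. Of the 13 tested neutrophil markers, 11 had higher means in DIO-HFD than in CON-LFD, with a median log2 difference of 1.09. At an unadjusted P below 0.05 there were 0 (12.9% of all genes). Ltf stands in both this list and the epithelial one, and the part of neutrophils was not tested.

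**Figure D2:**
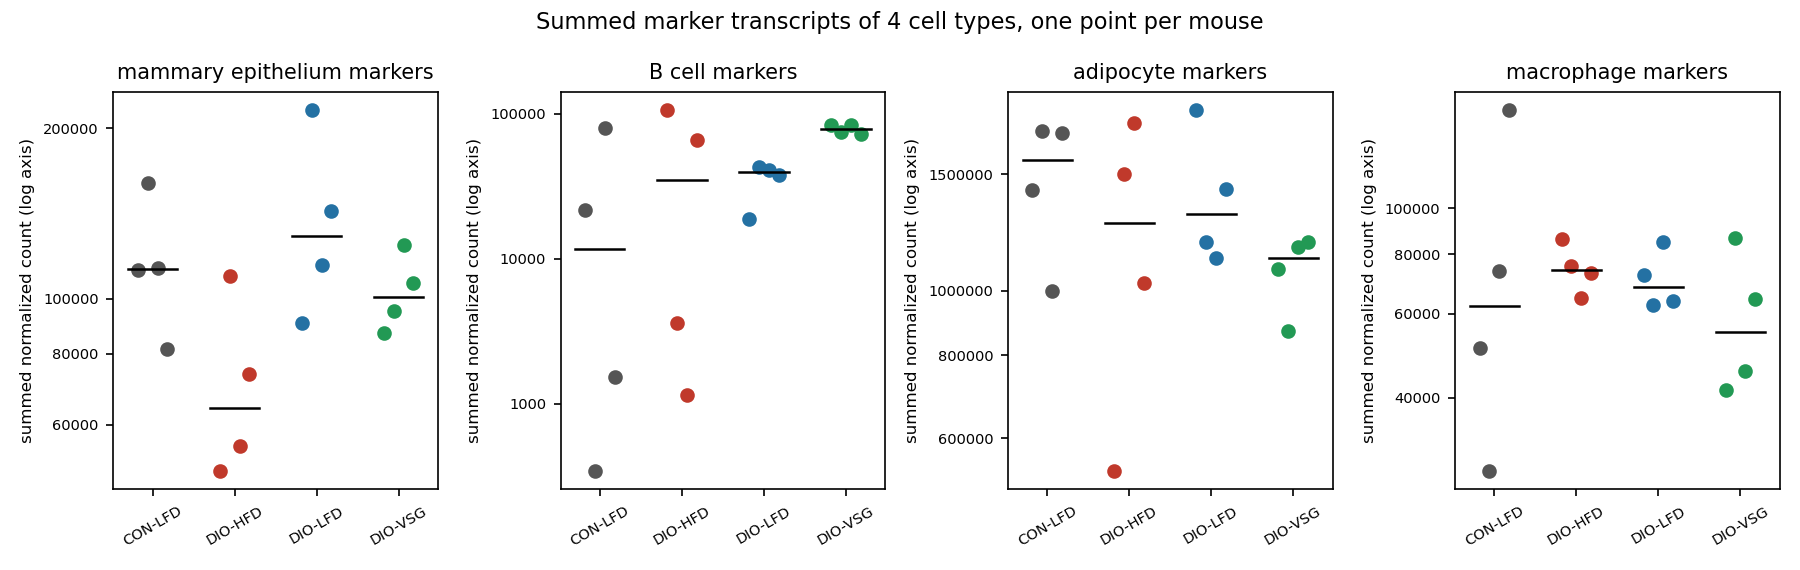
Summed normalized counts (log axis) of the marker transcripts of mammary epithelium, B cells, adipocytes and macrophages in each mouse, by group; each point is 1 library, n = 4 per group, and the line is the group median. Epithelial sums were lowest in DIO-HFD (median 64287), and B cell sums ran from 341 to 79655 within CON-LFD but from 71892 to 83576 in DIO-VSG.

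Orm1 and Orm2 encode the orosomucoids, or alpha-1-acid glycoproteins, and lie side by side with Orm3 on chromosome 4 (Orm1 chr4:63344560-63348163, Orm2 chr4:63362449-63365878, both on the plus strand). Their coding sequences are 89.9% identical, so that reads can be divided between them with error, and the values of Orm2, at the lower level, are the more uncertain. Orm1 was at 6609, 3992, 2069 and 7116 normalized counts in CON-LFD and at 933, 1494, 5027 and 1101 in DIO-HFD. In DIO-LFD it was at 334, 4093, 2474 and 9355, and in DIO-VSG at 1499, 4800, 2916 and 4791. DIO-LFD thus held both the lowest and the highest of the 16 libraries, and the lowest was the library with liver transcripts. The highest 2, DIO-LFD replicate 4 and CON-LFD replicate 4, were also those with the highest skeletal muscle sums.

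Orm2 was at 68.4, 42.4, 27.7 and 100 normalized counts in CON-LFD and at 29.6, 8.85, 20.7 and 18.8 in DIO-HFD. In DIO-LFD it was at 12.01, 51.6, 24.8 and 142, and in DIO-VSG at 39.4, 80.05, 28.7 and 56.2. DIO-HFD and CON-LFD overlapped only through DIO-HFD replicate 1 and CON-LFD replicate 3. The 3 libraries with high skeletal muscle sums were the 3 highest for Orm2, and the part of muscle in the values of Orm1 and Orm2 was not tested. The mean of Orm2 was 19.5 ± 8.52 in DIO-HFD and 59.7 ± 32.0 in CON-LFD (SD, n = 4 each), a log2 difference of -1.52 (95% interval -2.89 to -0.15, unadjusted P = 0.0322, adjusted P = 0.341, limma; exact permutation P = 0.0571). Orm1, at 2139 ± 1940 and 4947 ± 2357, differed by -1.41 with a wider interval (-3.22 to 0.39, unadjusted P = 0.115, limma). Relative to DIO-HFD, Orm2 in DIO-VSG differed by 1.36 (95% interval -0.01 to 2.72, unadjusted P = 0.0521, adjusted P = 0.382, limma), just short of an unadjusted P of 0.05, and Orm1 by 0.93 (95% interval -0.88 to 2.73). Over all settings tried, the Orm2 difference ran from -1.83 to -0.64 between DIO-HFD and CON-LFD and from 0.55 to 1.59 between DIO-VSG and DIO-HFD. Within the 12 libraries with B cell marker sums over 10000, the Orm2 difference between DIO-HFD and CON-LFD was -0.86 (unadjusted P = 0.382). Without the 3 libraries high in skeletal muscle markers, a choice made after those sums were seen, it was -1.22 (unadjusted P = 0.0409), and the Orm1 difference between DIO-LFD and DIO-HFD turned from 0.51 to -0.15. Both genes were ordered CON-LFD, DIO-VSG, DIO-LFD and DIO-HFD by mean log2 value, with overlap between neighbors.

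C/EBP factors take part in acute phase transcription, and the stretch before the start site of Orm2 holds a match to the C/EBP half-site pair TTNNGCAA, searched on both strands in the 250 bases before each RefSeq start (GRCm38.p6). It is shown to place that match, 120 to 113 bases before the start, in capitals, in chr4:63362199-63362448 on the plus strand.
Orm2: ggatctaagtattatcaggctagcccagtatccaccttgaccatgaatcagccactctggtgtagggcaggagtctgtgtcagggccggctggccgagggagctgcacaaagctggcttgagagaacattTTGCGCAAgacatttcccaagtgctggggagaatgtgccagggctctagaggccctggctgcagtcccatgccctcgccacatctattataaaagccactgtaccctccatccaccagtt
RefSeq windows were at hand for Saa1, Saa2, Saa3, Lcn2, Orm2 and Cp. Of their 7 windows, 6 held the C/EBP letters, against 9.56% of the 32851 windows of this length over all genes, and those of Saa1 and Saa2 are near copies of each other. The first of the 2 Cp windows had no match, and the match in the other, like the one of Lcn2, lies inside the gene as GENCODE annotates it. Neither the STAT palindrome TTCNNNGAA, found in 7.02% of all windows, nor the NF-kB consensus, found in 7.25%, matched in a member window. Letters alone show no binding, and absence of a match holds for these windows only.

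The serum amyloid A genes lie together on chromosome 7 (Saa3 chr7:46711998-46715700 and Saa1 chr7:46740497-46742980, minus strand; Saa2 chr7:46751790-46754313, plus strand). Saa1 and Saa2, the liver forms, share 95.1% of their coding sequence and 95.2% of the 250 bases before their starts, whereas Saa3 shares 77.3% and 55.6% with Saa1. The stretches before the 3 starts are shown side by side because Saa1 and Saa2 read almost alike and Saa3, the member with measurable RNA, does not. Capitals mark the C/EBP letters, on the minus strand of the printed sequence in Saa1 and Saa2 and on the plus strand in Saa3. The stretches are chr7:46742981-46743230 for Saa1, chr7:46751583-46751789 for Saa2 and chr7:46715701-46715926 for Saa3, the last 2 shortened to the bases before the first GENCODE exon.
Saa1: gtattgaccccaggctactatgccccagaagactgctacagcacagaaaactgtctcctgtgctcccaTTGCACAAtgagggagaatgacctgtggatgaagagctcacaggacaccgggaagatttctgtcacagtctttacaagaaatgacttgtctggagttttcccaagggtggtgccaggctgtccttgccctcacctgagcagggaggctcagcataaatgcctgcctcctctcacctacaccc
Saa2: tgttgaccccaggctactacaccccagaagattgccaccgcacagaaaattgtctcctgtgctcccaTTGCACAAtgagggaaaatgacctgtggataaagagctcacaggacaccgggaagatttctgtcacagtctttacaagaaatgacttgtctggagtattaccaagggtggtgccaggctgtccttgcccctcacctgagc
Saa3: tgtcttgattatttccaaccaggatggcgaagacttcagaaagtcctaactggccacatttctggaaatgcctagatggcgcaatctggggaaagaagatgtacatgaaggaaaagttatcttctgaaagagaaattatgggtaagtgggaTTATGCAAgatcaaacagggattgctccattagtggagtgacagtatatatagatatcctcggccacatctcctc

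Saa3 was at 3.31, 11.7, 7.38 and 62.3 normalized counts in CON-LFD and at 12.95, 125, 642 and 7.37 in DIO-HFD. In DIO-LFD it was at 936, 653, 19.1 and 9.19, and in DIO-VSG at 143, 35.1, 18.5 and 1.91. Each obese or formerly obese group held both low and high libraries: the highest value was 87.0 times the lowest in DIO-HFD and 102 times in DIO-LFD. The lowest libraries of CON-LFD and DIO-VSG held 3 and 2 reads, so no ratio is given for these groups. Means were 21.2 ± 27.6 in CON-LFD, 197 ± 302 in DIO-HFD, 404 ± 465 in DIO-LFD and 49.65 ± 63.8 in DIO-VSG (SD, n = 4 each). Relative to CON-LFD, DIO-HFD differed by 2.09 on the log2 scale (95% interval -1.61 to 5.78, unadjusted P = 0.246, adjusted P = 0.654, limma), by 0.91 without DIO-HFD replicate 3 and by 0.38 with library weights. DIO-LFD differed from CON-LFD by 3.02 (95% interval -0.68 to 6.72, unadjusted P = 0.102, adjusted P = 0.856, limma). DIO-VSG differed from DIO-HFD by -1.25 (95% interval -4.95 to 2.44, unadjusted P = 0.480, adjusted P = 0.717, limma), by -0.074 without DIO-HFD replicate 3 and by -2.16 without DIO-HFD replicate 4. With such intervals neither a several-fold difference nor its absence could be shown for Saa3 at 4 mice per group. Macrophage markers, genes of another cell type that makes Saa3, summed to 64658 to 86189 normalized counts in DIO-HFD and to 27993 to 160977 in CON-LFD. In DIO-LFD they summed to 62746 to 85026 and in DIO-VSG to 41476 to 86576. Of the 15 tested, 12 had higher means in DIO-HFD than in CON-LFD (median log2 difference 0.36), 1 at an unadjusted P below 0.05 (12.9% of all genes). Relative to DIO-HFD, 14 had lower means in DIO-VSG (median -0.60), 1 at that mark (13.2% of all genes). In DIO-LFD 10 were lower and 5 higher (median -0.02). The part of macrophages in the Saa3 values was not tested.

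Saa1 was close to the detection limit. It gave 45 reads over the 16 libraries, 22 of them in CON-LFD, 5 in DIO-HFD, 11 in DIO-LFD and 7 in DIO-VSG. It had 0 reads in 5 libraries and 3 reads or fewer in 11. The highest library, CON-LFD replicate 4, was at 15.1 normalized counts and the only one at 10 or more, so that no fold change is given. DIO-LFD replicate 1, which held liver transcripts, had 5.46 normalized counts of Saa1.

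Obesity was addressed by setting DIO-HFD against CON-LFD. Only DIO-HFD mice were still on the high-fat diet. In every comparison with this group, obesity or weight loss thus cannot be told apart from the diet eaten at the time. Cp and Orm2 had lower values in DIO-HFD at an unadjusted P below 0.05, and 2 of the 6 members met that mark against 12.9% of all genes tested. With adjusted P, 0 of 6 members passed (limma), as did 0.0377% of all genes, and voom on the recovered reads also gave 0 members. Groups overlapped for all 6 members, against 4.76% of all genes without overlap. The median log2 difference was -0.77 over the 6 members and 0.02 over all genes: Hp and Saa3 had higher means in DIO-HFD and the other 4 lower ones. The adjusted result depended on how libraries were weighted. When limma estimated a weight for each library, Lcn2 (-1.12, adjusted P = 0.0260), Orm1 (-2.29, adjusted P = 0.0195), Orm2 (-1.68, adjusted P = 0.0336) and Cp (-0.70, adjusted P = 0.00891) passed, along with 4196 genes in all. Those weights ran from 0.222 for DIO-HFD replicate 3 to 10.9 for DIO-HFD replicate 4, so that the mean of DIO-HFD was then set mainly by replicate 4.

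Weight loss after surgery was addressed by setting DIO-VSG against DIO-HFD. Hp alone had lower values in DIO-VSG at an unadjusted P below 0.05, 1 of 6 members against 13.2% of all genes, and was the only member without overlap, against 6.59% of all genes. With adjusted P, 0 of 6 passed (limma), as did 0% of all genes. Orm1, Orm2, Cp and Lcn2 had higher means in DIO-VSG, and Hp and Saa3 lower ones. The median over the members was 0.29, beside 0.02 over all genes. Under library weights the Saa3 difference turned to 1.01.

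Weight loss by diet was addressed by setting DIO-LFD against DIO-HFD. All 6 members had higher mean log2 values in DIO-LFD, with a median difference of 0.79 against 0.01 over all genes, but only Cp had an unadjusted P below 0.05 (1 of 6, against 8.53% of all genes). With adjusted P, 0 of 6 passed (limma), as did 0% of all genes, and 0 of 6 were without overlap, against 4.51%. Without DIO-LFD replicate 1, Saa3 and Hp turned to -0.12 and -0.44. Without that library, members at an unadjusted P below 0.05 numbered 3, beside 1954 of all 21218 genes. Under library weights, Lcn2 (1.09, adjusted P = 0.0335) and Cp (0.53, adjusted P = 0.0249) passed, among 1811 of all 21218 genes, against 0 without weights. These 3 comparisons share the DIO-HFD libraries, so their values are set side by side and are not independent.

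Surgery with diet was also set against diet alone. Hp was lower in DIO-VSG than in DIO-LFD at an unadjusted P below 0.05, 1 of 6 members against 9.71% of all genes, and without overlap, 1 of 6 against 18.8% of all genes. Scaling to library totals or quantile normalization left 0 of 6 without overlap. A share of non-overlapping genes of this size was a general feature of this pair of groups. With adjusted P, 0 of 6 passed (limma), as did 0% of all genes. Relative to CON-LFD, 0 of 6 members had an unadjusted P below 0.05 in DIO-VSG (17.8% of all genes) and 0 of 6 in DIO-LFD (6.26% of all genes), and 0 were without overlap (7.02% and 3.53% of all genes). With adjusted P, 0 of 6 passed in both (limma), against 0% and 0.00471% of all genes. The Hp difference between DIO-VSG and CON-LFD was -0.53 (95% interval -1.76 to 0.70), and that between DIO-LFD and CON-LFD was 0.95 (95% interval -0.28 to 2.18). The latter was 0.41 without DIO-LFD replicate 1 and 1.35 without DIO-LFD replicate 2 (unadjusted P = 0.0362). At an adjusted P of 0.05, voom on the recovered reads called 0 members in each of these comparisons.

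**Figure D3:**
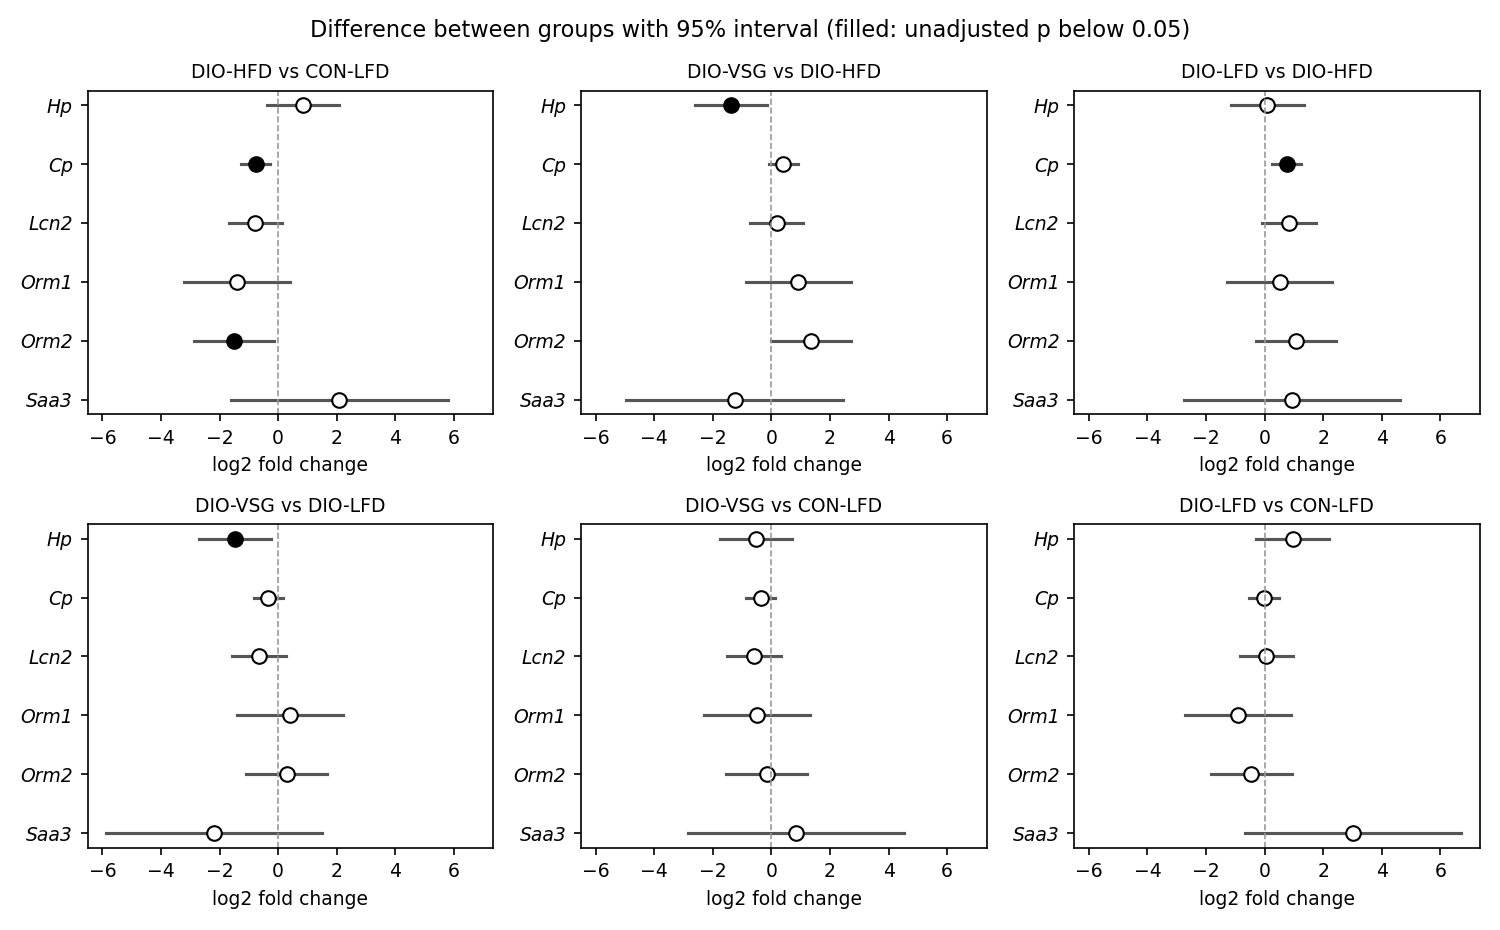
Log2 fold change of each tested acute phase gene in the 6 comparisons between groups (points) with its 95% interval from limma (lines); filled points have an unadjusted P below 0.05, and the dashed line marks 0. Filled points are Cp and Orm2 in DIO-HFD vs CON-LFD, Hp in DIO-VSG vs DIO-HFD and vs DIO-LFD, and Cp in DIO-LFD vs DIO-HFD, and the intervals of Saa3 are the widest.

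The members did not vary together as 1 group across the 16 libraries. Of the 15 pairs among the 6 tested members, Orm1 with Orm2 was the only pair past an adjusted permutation P of 0.05 (Pearson's r = 0.78, permutation P = 0.00032, adjusted P = 0.0048; Spearman's rho = 0.77, permutation P = 0.00084, adjusted P = 0.0126). The relation was r = 0.80 without the 2 libraries farthest from the median of Orm1, r = 0.75 after group means were subtracted and r = 0.89 within the 12 libraries with B cell marker sums over 10000. It was r = 0.68 without the 3 libraries high in skeletal muscle markers. Division of reads between these near-identical coding sequences could bear on it and was not tested. Lcn2 with Cp had r = 0.63 (permutation P = 0.00779, adjusted P = 0.0584; rho = 0.63), and r = 0.35 within the 12 libraries. Saa3 with Hp had r = 0.57 (permutation P = 0.0210, adjusted P = 0.105; rho = 0.36), and without DIO-LFD replicate 1 it was 0.41. The other 12 pairs lay between r = -0.37 and r = 0.11. Of these, Hp with Cp moved from r = 0.08 to 0.63 within the 12 libraries and to -0.38 without DIO-LFD replicate 1.

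**Figure D4:**
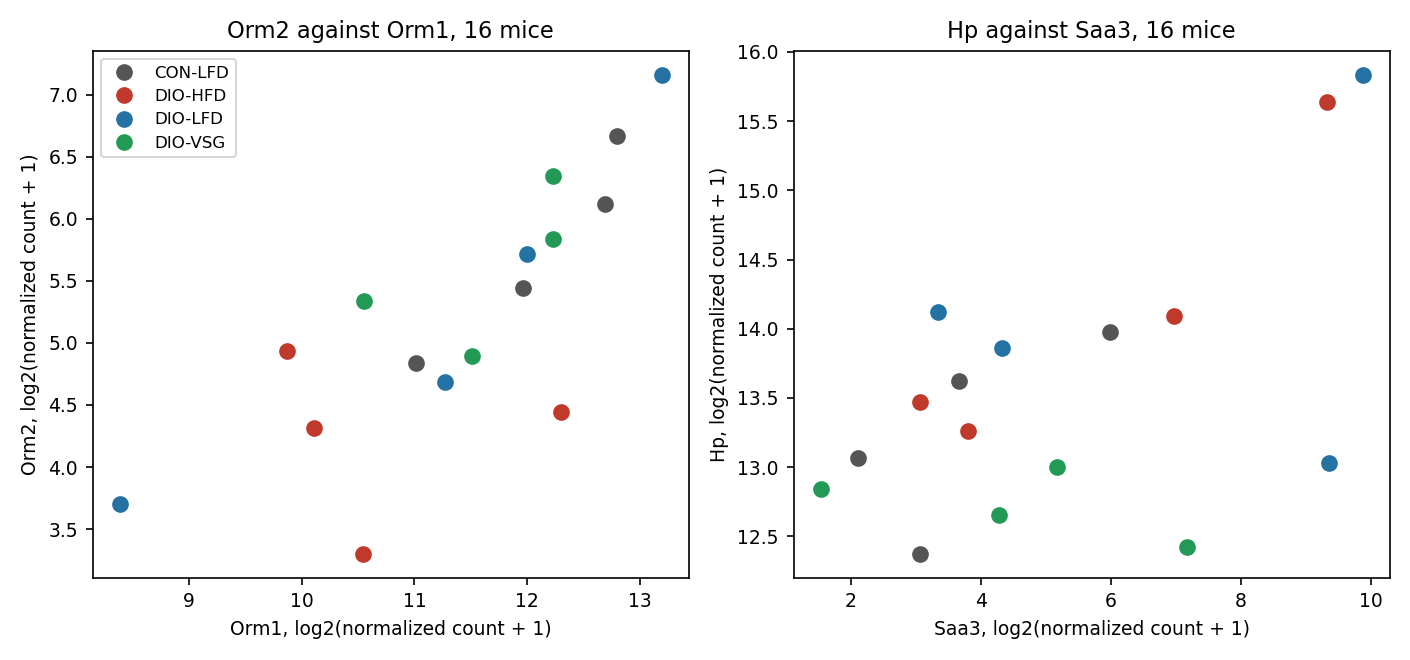
Log2(normalized count + 1) of Orm2 against Orm1 (left) and of Hp against Saa3 (right) in the 16 mice, colored by group. Orm1 and Orm2 rank the mice alike (r = 0.78), whereas the Hp and Saa3 panel is drawn out by DIO-LFD replicate 1 and DIO-HFD replicate 3 at its upper right, and DIO-LFD replicate 2 has high Saa3 with low Hp.

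Among 13075 other tested genes with a median of at least 100 normalized counts, the 3 with a pattern most like each member over the 16 libraries were as follows, by Pearson's r as a description. For Hp they were Gpr180 (0.96), Snx19 (0.94) and Arf2 (0.94), and for Cp they were Pck1 (0.88), S100a1 (0.87) and B4galt4 (0.85). Pck1 encodes the cytosolic phosphoenolpyruvate carboxykinase of glyceroneogenesis in fat. For Lcn2 they were Plet1 (0.87), Mapk13 (0.85) and Fam83b (0.83). For Orm1 they were Lctl (0.95), Pm20d1 (0.95) and Myl6b (0.94), and for Orm2 they included Adgb (0.84) and Tm7sf2 (0.84). Pm20d1 is an enzyme that joins fatty acids to amino acids. For Saa3 they were Spp1 (0.86), which encodes osteopontin, Hilpda (0.85), a lipid droplet protein, and Gprc5a (0.83). None of these lists shared a gene with another.

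Other positive acute phase genes were followed by a list of 32, of which 27 were tested. In DIO-HFD relative to CON-LFD, 2 had higher and 1 lower values at an unadjusted P below 0.05 (3 of 27, against 12.9% of all genes), and 0 passed the adjusted test, as in all 6 comparisons for every list below. These were complement factor B (Cfb, 14318 ± 2586 against 9436 ± 2397 normalized counts, log2 difference 0.62, unadjusted P = 0.00287), Lrg1, a leucine-rich glycoprotein (10474 ± 3224 against 5521 ± 1709, 0.93, unadjusted P = 0.0209), and Orm3, the third orosomucoid (52.9 ± 20.2 against 129 ± 37.5, -1.28, unadjusted P = 0.0130). Orm3 thus lay in the direction of Orm1 and Orm2. In DIO-VSG relative to DIO-HFD, 3 of 27 had lower values, against 13.2% of all genes called in either direction: Cfb (-0.57, unadjusted P = 0.00503), the lipopolysaccharide-binding protein Lbp (-1.50, unadjusted P = 0.0158) and Lrg1 (-0.82, unadjusted P = 0.0383). Between DIO-LFD and DIO-HFD only Cfb met that mark, 1 of 27 against 8.53% of all genes (-0.52, unadjusted P = 0.00910). The next 2 genes by P, Chil1 (0.84, unadjusted P = 0.144) and the metallothionein Mt1 (0.96, unadjusted P = 0.150), did not. The median log2 difference of the list was 0.02, -0.02 and 0.43 in these 3 comparisons.

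Negative acute phase genes, whose proteins fall in blood during inflammation, had 5 tested members of 8. At an unadjusted P below 0.05, 2 of 5 were lower in DIO-HFD than in CON-LFD (12.9% of all genes), and against DIO-HFD 2 of 5 were higher in DIO-VSG (13.2% of all genes) and 3 of 5 in DIO-LFD (8.53% of all genes). Albumin (Alb) was at 944 ± 382 normalized counts in DIO-HFD against 2835 ± 1059 in CON-LFD (log2 difference -1.62, unadjusted P = 0.000308, adjusted P = 0.140, limma). It was at 2466 ± 512 in DIO-VSG (1.47 relative to DIO-HFD, unadjusted P = 0.000731) and at 2879 ± 863 in DIO-LFD (1.67, unadjusted P = 0.000244). The DIO-HFD libraries, at 444 to 1246, did not overlap any other group. Taken pair by pair, 4.76% of all genes were without overlap against CON-LFD, 6.59% against DIO-VSG and 4.51% against DIO-LFD. The retinol-binding protein Rbp4 differed by -0.99 in DIO-HFD relative to CON-LFD (unadjusted P = 0.0222), and, against DIO-HFD, by 1.02 in DIO-VSG (unadjusted P = 0.0195) and by 1.24 in DIO-LFD (unadjusted P = 0.00621). Transferrin (Trf) differed by 1.15 in DIO-LFD (unadjusted P = 0.00412). Serpinc1 in DIO-HFD relative to CON-LFD (-0.39, unadjusted P = 0.269) and Ahsg in DIO-VSG relative to DIO-HFD (-1.63, unadjusted P = 0.123, at 2.59 against 10.3 normalized counts) did not reach 0.05.

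Cytokines that induce the acute phase response and their receptors numbered 18 tested of 20. In DIO-HFD relative to CON-LFD, 16 had higher means (52.7% of all genes did), with a median log2 difference of 0.38, and 3 had an unadjusted P below 0.05 (12.9% of all genes): Il6 (8.73 ± 3.12 against 2.53 ± 2.00 normalized counts, 1.67, unadjusted P = 0.0143), Il1r1 (0.33, unadjusted P = 0.0372) and Tnfrsf1b (0.68, unadjusted P = 0.0468). Il6 itself was thus near the detection limit. In DIO-VSG relative to DIO-HFD, 0 met that mark (13.2% of all genes). There the smallest P belonged to Tnfrsf1a (-0.37, unadjusted P = 0.0698), Il1rn (-0.99, unadjusted P = 0.0777) and Lif (-0.55, unadjusted P = 0.0796). In DIO-LFD they belonged to Il1rn (-0.80), Il1rap (-0.61) and Nr3c1 (-0.18), at unadjusted P of 0.147 to 0.272.

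All 20 transcription factors and feedback genes were tested, of which 4 had an unadjusted P below 0.05 in DIO-HFD relative to CON-LFD (12.9% of all genes). In DIO-HFD relative to CON-LFD, the NF-kB subunit Rela (0.27, unadjusted P = 0.0112) and the STAT3 inhibitor Socs3 (0.59, unadjusted P = 0.0170) had higher values. Lower values were found for 2 genes, among them the glucocorticoid-responsive clock gene Per1 (-0.77, unadjusted P = 0.0101). Cebpb, one of the factors that bind C/EBP sites, differed by 0.64 in DIO-LFD relative to DIO-HFD (unadjusted P = 0.0444), where Per1 (0.47) and Cebpa (0.48) had an unadjusted P of 0.0920 and 0.130. Between DIO-VSG and DIO-HFD 0 had an unadjusted P below 0.05 (13.2% of all genes), and the smallest belonged to Nfkbia (0.53, unadjusted P = 0.0519), Tsc22d3 (0.78, unadjusted P = 0.0891) and Per1 (0.47, unadjusted P = 0.0921).

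Receptors and binding partners of acute phase proteins had 20 tested of 23. At an unadjusted P below 0.05, 2 were higher and 1 lower in DIO-HFD than in CON-LFD (12.9% of all genes). In DIO-LFD relative to DIO-HFD, 1 was higher and 1 lower (8.53% of all genes). Slc40a1, the iron exporter ferroportin that works with ceruloplasmin, was at 1775 ± 324 normalized counts in DIO-HFD against 835 ± 86.6 in CON-LFD (1.08, unadjusted P = 0.00157). It was at 927 ± 270 in DIO-VSG (-0.96, unadjusted P = 0.00356) and at 868 ± 323 in DIO-LFD (-1.11, unadjusted P = 0.00119). Its differences had the opposite sign to those of Cp in these comparisons, which share the DIO-HFD libraries and are not independent. Hephl1, a ceruloplasmin relative, was at 44.6 ± 25.0 in DIO-HFD against 175 ± 88.4 in CON-LFD (-1.91, unadjusted P = 0.0252) and 351 ± 360 in DIO-LFD (2.66, unadjusted P = 0.00366). The transferrin receptor Tfrc differed by 0.47 in DIO-HFD relative to CON-LFD (unadjusted P = 0.0406). Between DIO-VSG and DIO-HFD, 6 of 20 had lower and 1 higher values in DIO-VSG at that mark (13.2% of all genes), among them Lrp1 (-0.87, unadjusted P = 0.00635), a receptor for hemopexin and other ligands, and P2rx7 (-0.53, unadjusted P = 0.00920), an ATP-gated channel. P2rx7 in DIO-LFD had -0.34 (unadjusted P = 0.0757).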

How the data were processed

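Total RNA of contralateral mammary fat was sequenced by the authors (stranded total RNA kit, paired ends) and 1 table of 23179 genes in 16 libraries was deposited. Groups and replicate numbers came from the sample titles. The deposited values, described as normalized counts, are variance-stabilized values on a log2 scale (5.36 to 21.85). The study's methods name STAR, salmon and a Gencode annotation whose release is not given in the sources used here, whereas the submitters' processing notes list TopHat2 2.0.7, HTSeq 0.5.3p9, DESeq2 and mm10. Which of them made the table, and whether reads were counted by strand, was not settled. Per the study, genes whose counts summed to under 10 had been dropped, and the lowest recovered total was 10. The transformation was inverted to normalized counts, and 100% of values were then whole reads within 0.1 read.

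The fixed design assumed normalized counts, and these recovered values were used. limma-trend (limma 3.58.1, R 4.3.3) was fitted to log2(normalized count + 1) in the 16 libraries, with no term other than group, on 21218 genes (10 or more normalized counts in 4 libraries or more). Tests were two-sided, and P values were adjusted by Benjamini-Hochberg over all genes of a comparison (threshold 0.05). Fold changes on this scale understate low genes. Exact permutation tests covered the 70 arrangements of 4 against 4 libraries, and correlations used 100000 permutations, adjusted over 15 pairs. Replicates are separate animals by their labels. Members and lists were chosen with earlier results of these data known. Of each list, the up to 3 genes with the smallest unadjusted P in each comparison with DIO-HFD were named. Of the genes most like Orm2, 1 is not reported here. The fit was tested on simulated data. Positions and transcripts are from GENCODE M21 and upstream sequences from RefSeq (GRCm38.p6). Alternatives covered pseudocount, filter, scaling, voom, library weights, covariates, a replicate block, each library left out and, chosen after the marker sums were seen, only libraries with high B cell or low skeletal muscle marker sums. The design named 28 pairs of members, of which 15 could be formed. At 46907377 to 57610899 reads per library, counting error matters only for Saa1, Saa3 and Orm2.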

Additional observations from a re-analysis of the deposited data

Results flagged for a closer look

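In 24 sets of 4 libraries (6 members in 4 groups), 2 held a library that stood apart by Dixon's 95% criterion, and chance alone would give about 1.2. Lcn2 in DIO-VSG replicate 2 was at 3703 normalized counts, against 1682 to 1870 in the other DIO-VSG libraries, a gap of 0.866 of the range on the log2 scale. The 15 listed neutrophil markers summed to 14381 normalized counts in that library and to 5832 to 8284 in the other DIO-VSG libraries, and their part in the Lcn2 value was not tested. Cp in DIO-LFD replicate 1 was at 22675 normalized counts, against 11631 to 12760 in the other DIO-LFD libraries, a gap of 0.861. This is the library with liver transcripts (Apoa1 at 321 normalized counts), whose part in the Cp value was not tested.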

How the results depend on the processing

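The comparisons are named here by their groups, and the cause of each change was not tested. Members past the adjusted threshold numbered 0 in all 6 comparisons under every setting but library weights, which gave 4 in DIO-HFD vs CON-LFD and 2 in DIO-LFD vs DIO-HFD. Over all genes, weights gave 4196 calls against 8 in DIO-HFD vs CON-LFD, 1811 against 0 in DIO-LFD vs DIO-HFD, 3739 against 0 in DIO-VSG vs DIO-HFD, 4226 against 0 in DIO-VSG vs CON-LFD, 53 against 1 in DIO-LFD vs CON-LFD and 184 against 0 in DIO-VSG vs DIO-LFD. Without CON-LFD replicate 3 the calls numbered 128 in DIO-HFD vs CON-LFD and 873 in DIO-VSG vs CON-LFD. A fit of only the 8 libraries of DIO-VSG and DIO-LFD gave 1533 and, of DIO-VSG and CON-LFD, 2. Members at an unadjusted P below 0.05 numbered 4 with weights in DIO-HFD vs CON-LFD, DIO-VSG vs DIO-HFD and DIO-LFD vs DIO-HFD, and 2 in DIO-VSG vs DIO-LFD and DIO-VSG vs CON-LFD, beside 7949, 7184, 5596, 5500 and 7937 of all 21218 genes. In DIO-VSG vs DIO-HFD they numbered 2 after quantile normalization (2852 of all genes), 2 in the fit of 8 libraries (2550), and 0 with the B cell covariate (2162), the epithelial one (2293) and within the 12 libraries with B cell marker sums over 10000 (1475). In DIO-HFD vs CON-LFD they numbered 3 with the B cell covariate (Hp, Orm2 and Cp, beside 3423 of all genes) and 3 in the fit of 8 libraries (Orm1, Orm2 and Cp, beside 1685). Within those 12 they numbered 1 in DIO-HFD vs CON-LFD (1600 of all genes) and 1 in DIO-LFD vs CON-LFD (1731), where the B cell covariate gave 2 (2832) and the epithelial one 1 (1517), and the fit of 8 libraries gave 1 in DIO-VSG vs CON-LFD (4394). Members without overlap numbered 1 in DIO-HFD vs CON-LFD and in DIO-VSG vs CON-LFD, and 0 in DIO-VSG vs DIO-LFD, after scaling to library totals (6.76%, 5.70% and 16.2% of all genes) or quantile normalization (4.55%, 6.79% and 18.4%). They numbered 2 in DIO-VSG vs DIO-HFD after quantile normalization (6.77%). Within the 12 libraries, which leave 2 each in DIO-HFD and CON-LFD, they numbered 3 in DIO-HFD vs CON-LFD (31.8% of all genes), 3 in DIO-VSG vs DIO-HFD (18.1%), 1 in DIO-LFD vs DIO-HFD (32.6%) and 1 in DIO-LFD vs CON-LFD (14.5%). Without the 3 libraries high in skeletal muscle markers, members at an unadjusted P below 0.05 numbered 2 in DIO-LFD vs DIO-HFD (1358 of all genes), 2 in DIO-VSG vs DIO-LFD (1609) and 1 in DIO-LFD vs CON-LFD (863), and those without overlap 2 in DIO-VSG vs DIO-LFD (28.96% of all genes), 1 in DIO-VSG vs CON-LFD (13.7%) and 1 in DIO-LFD vs CON-LFD (8.17%). There Lcn2 turned to -0.089 in DIO-VSG vs DIO-HFD, Orm1 to -0.15 in DIO-LFD vs DIO-HFD and Cp to 0.062 in DIO-LFD vs CON-LFD. With each library left out in turn, members at an unadjusted P below 0.05 numbered 1 to 3 in DIO-HFD vs CON-LFD, 0 to 3 in DIO-VSG vs DIO-HFD, 1 to 3 in DIO-LFD vs DIO-HFD, 0 to 1 in DIO-VSG vs DIO-LFD and in DIO-LFD vs CON-LFD, and 0 in DIO-VSG vs CON-LFD. Those without overlap numbered 0 to 2, 1 to 2, 0 to 1, 1 to 2 and 0 in these first 5 comparisons, and 0 to 2 in DIO-VSG vs CON-LFD. Saa3 in DIO-VSG vs DIO-HFD turned to 1.01 with weights, 0.27 with the B cell covariate and 1.11 in the 12 libraries, and Lcn2 there to -0.10 with the epithelial covariate. In DIO-VSG vs DIO-LFD, weights turned Orm1 to -0.11 and Orm2 to -0.030. In DIO-VSG vs CON-LFD, Hp turned to 0.47 and Orm1 to 0.10 with the B cell covariate, and Hp to 0.010 and Orm2 to 0.12 in the 12 libraries. In DIO-LFD vs CON-LFD, Lcn2 turned to -0.030 with weights and -0.010 with the epithelial covariate, and Cp to 0.035 with library totals, 0.037 with the B cell covariate and 0.088 in the 12 libraries. Leaving out 1 library moved values across 0 as follows: Lcn2 from -0.16 to 0.51 in DIO-VSG vs DIO-HFD; in DIO-LFD vs DIO-HFD Saa3 from -0.12 to 2.11, Hp from -0.44 to 0.60 and Orm1 from -0.15 to 1.45; in DIO-VSG vs DIO-LFD Orm1 from -0.53 to 1.08 and Orm2 from -0.25 to 0.90; in DIO-VSG vs CON-LFD Saa3 from -0.040 to 1.84 and Orm2 from -0.47 to 0.14; and in DIO-LFD vs CON-LFD Lcn2 from -0.14 to 0.32, Orm1 from -1.56 to 0.038, Orm2 from -1.06 to 0.089 and Cp from -0.25 to 0.071. The Hp difference also lost its unadjusted P below 0.05 in limma without DIO-VSG replicate 1 (unadjusted P = 0.0661 against DIO-HFD and 0.0502 against DIO-LFD) and, against DIO-HFD, without DIO-VSG replicate 3 (0.0541) or with the replicate block (0.0544), and Orm2 in DIO-HFD vs CON-LFD without CON-LFD replicate 1 (0.0705) or 4 (0.0972) or DIO-HFD replicate 2 (0.0990) or 4 (0.0506). Other differences kept their sign with each library left out but moved by over 1.5 times, among them Hp in DIO-HFD vs CON-LFD (0.35 to 1.14) and in DIO-VSG vs CON-LFD (-0.83 to -0.29), Orm1 in DIO-VSG vs DIO-HFD (0.65 to 1.46) and Saa3 in DIO-LFD vs CON-LFD (1.97 to 4.14). Cp in DIO-HFD vs CON-LFD stayed between -0.96 and -0.59 in all settings tried (adjusted P from 0.00891 to 0.834). Replicate numbers did not pair the libraries, since correlations of same-numbered libraries ran from -0.61 to 0.53 (24 pairs), and with the replicate block 3 members had an unadjusted P below 0.05 in DIO-HFD vs CON-LFD (Lcn2, Orm2 and Cp, beside 2550 of all genes), 2 in DIO-LFD vs DIO-HFD (1666) and 2 in DIO-VSG vs DIO-LFD (1869), and 1 gene passed over all genes in DIO-HFD vs CON-LFD. Depth limits Saa1 most, and counting error also bears on the lowest libraries of Saa3 and Orm2.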
